A study of Zingiber officinale with 6 samples.

Results

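The genes described here are the 100 most evenly expressed genes among the well-expressed genes of the ginger leaf blade. They were chosen from the deposited FPKM (the read count of a gene divided by its length and by the sum of counts in that library) as the genes with the lowest coefficient of variation (CV, the SD divided by the mean) over all 6 plants. The mean FPKM had to lie between 50 and 500, and the 100 genes with the highest mean in control plants were left out. Of the 55601 genes in the files, 1933 could be chosen, after 4 genes of the window had been removed as highest in control. The 6 plants were ginger (Zingiber officinale) of the Laiwu variety, derived from tissue culture, and each was grown for 21 days in a pot with a perforated base sealed on top of a glass jar. In the control group (3 plants) the jar held V8 medium alone, and in the group exposed to the volatile organic compounds of Pythium oligandrum GAQ1 (Po-VOCs, 3 plants) the oomycete grew on that medium. Blades of the uppermost leaves gave 1 library per plant, with 13695463 to 14662442 counts on genes. The names of the 100 genes are bare locus numbers in the annotation of the Zo_v1.1 assembly used here, which is of another cultivar (Zhangliang), and 0 of them are among the 1517 genes whose product names could be read here. No role is therefore given to any of them, and the tissue label was not checked against leaf markers. Leaf blades are mixtures of cell types, so fewer cells of a type and less RNA per cell cannot be told apart.

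Genes that serve every cell, such as those of translation, protein turnover and the cytoskeleton, are often used as internal references in qPCR, where the level of a target gene is read as a ratio to them. Such a ratio is only as steady as the reference itself. The qPCR of ginger genes was normalized to LOC121989190 (ZoEF-1α), a gene annotated with the domains of elongation factor Tu. This protein brings aminoacylated tRNAs to the ribosome. LOC121989190 lies on chromosome 6B from 117801014 to 117805438 of Zo_v1.1, and its primers, shown because they define the reference that the 100 genes are compared with, are designed oligonucleotides of 18 bases each, written here 5′ to 3′ in lower case with no part marked.
LOC121989190 forward primer: gatggacagacacgagaa
LOC121989190 reverse primer: gagacctccttgacgatt

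The CV of the 100 stable genes ran from 3.24% to 9.82%, with a median of 7.90%, where the median over all 1933 genes that could be chosen was 23.6% and the highest was 204%. These values chose the genes and are given as a description. Between the plant with the highest and the plant with the lowest FPKM, the stable genes differed by 1.09-fold to 1.34-fold, and 25 of them by less than 1.2-fold. Most were in the lower part of the window: 72 had a mean FPKM from 50 to 100, 17 from 100 to 200 and 11 from 200 to 500. This is 5.87%, 3.46% and 5.00% of the genes of each class, so the evenly expressed genes were not gathered at one expression level. The highest mean of a stable gene was 337 FPKM, where the genes that could be chosen reached 497 FPKM. The reference LOC121989190 had a mean of 426 FPKM. Below the window, the same CV limit was met by 7.52% of the genes with a mean FPKM of 20 to 50, 8.70% of those with 10 to 20, 5.83% of those with 5 to 10 and 1.35% of those with 1 to 5. At 500 FPKM and above it was met by 2.21%.

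**Figure D1:**
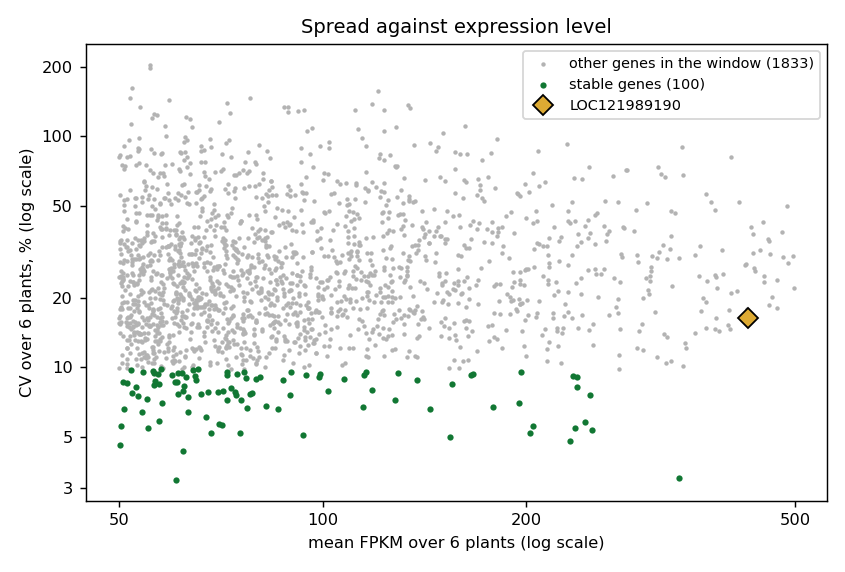
CV over the 6 plants (vertical, percent, log scale) against mean FPKM (horizontal, log scale) for the 1933 genes with a mean FPKM of 50 to 500, with the 100 stable genes in green and the qPCR reference LOC121989190 as a diamond. The stable genes form the lower edge up to their highest mean of 337 FPKM, with CVs up to the limit of 9.82%. No stable gene lies at higher means, and the reference, at a mean of 426 FPKM, lies above the limit at 16.2%.

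The lowest CV was that of LOC122042164 (chromosome 2A, 123006241 to 123015294). With plants given throughout in the order of replicates 1, 2 and 3, it had 58.5, 58.7 and 60.8 FPKM in control plants and 61.9, 61.2 and 63.7 FPKM in exposed plants, a CV of 3.24%. The groups did not overlap, although the means were only 0.07 apart on the log2 scale (standard error 0.17). Next came LOC122005422 (chromosome 7B, 16960498 to 17041080), which was also the most highly expressed of the 100 genes at a mean of 337 FPKM. It had 358, 332 and 327 FPKM in the control plants and 333, 331 and 338 FPKM in the exposed plants. Control replicate 1 was the highest, the other plants lay close together with the groups overlapping, and without that plant the CV fell from 3.31% to 1.23%.

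LOC121976198 (chromosome 4B, 118132626 to 118139204) had 66.5, 62.2 and 61.7 FPKM in control plants and 63.7, 59.6 and 59.3 FPKM in exposed plants, with a CV of 4.34%. LOC122005999 (chromosome 7B, 72152878 to 72161979), the gene with the lowest mean of the 100, had 50.9, 48.0 and 54.2 FPKM in control plants and 49.7, 47.8 and 50.3 FPKM in exposed plants. In both of these genes the ranges of the groups overlapped. The CV of LOC122005999 was 4.62%, and 2.78% without control replicate 3, its highest plant. LOC122055314 (chromosome 3B, 331118 to 335488) had the most counts, 7572 per library on average, and 253, 231 and 228 FPKM in control plants against 236, 221 and 225 FPKM in exposed plants. In this gene control replicate 1 was the highest plant and the other 5 lay between 221 and 236 FPKM, and the CV fell from 4.80% to 2.48% without it. The remaining 5 of the 10 lowest CVs were those of LOC121996354, LOC122004868, LOC122053181, LOC122047368 and LOC122027177, at 4.99% to 5.20%.

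LOC121996354 (chromosome 6A, 50712525 to 50714051) had 150, 166 and 156 FPKM in control plants and 148, 158 and 146 FPKM in exposed plants. LOC122053181 (chromosome 3A, 162140252 to 162144000) had 81.1, 72.5 and 78.3 FPKM in control plants and 76.0, 75.1 and 70.3 FPKM in exposed plants. The groups overlapped in both genes, with the highest plant a control and the lowest an exposed plant.

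LOC122004868 (chromosome 7B, 420151 to 427590) was lower in every exposed plant, with 92.9, 88.3 and 88.4 FPKM, than in any control plant, with 99.8, 98.1 and 94.3 FPKM. LOC122027177 (chromosome 10A, 1048462 to 1055418) stood between 65.3 and 68.7 FPKM in 5 plants and at 75.1 FPKM in Po-VOCs replicate 3, without which its CV fell from 5.20% to 2.26%. The single plant that moved a gene most was therefore not the same from gene to gene. At the other end of the list, the limit fell within a dense part of the distribution. The last genes inside it, LOC122030907, LOC121976647 and LOC122006895, had CVs of 9.73%, 9.82% and 9.82%, and the first genes outside it, LOC122051021, LOC122038144 and LOC121971016, had 9.83%, 9.85% and 9.85%. LOC121976647 (chromosome 4B, 128489481 to 128491282) was at 58.7, 69.9 and 75.5 FPKM in control plants and at 64.5, 59.3 and 64.3 FPKM in exposed plants. LOC122006895 (chromosome 7B, 110615343 to 110624837) was at 55.6, 59.2 and 60.6 FPKM in control plants and at 66.4, 54.5 and 49.996 FPKM in exposed plants. In both, the highest and the lowest plants belonged to the same group.

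By plant, the FPKM of the stable genes relative to each gene's own mean had medians of 100%, 99.6% and 99.4% in the control plants and 102%, 95.9% and 100% in the exposed plants. Po-VOCs replicate 2 was thus a little lower than the others, and it was the lowest plant for 28 of the 100 genes and the highest for 3. Control replicate 1 was most often the highest plant, for 27 genes, and Po-VOCs replicate 1 for 25. Over the other 1833 genes that could be chosen, the medians were 101%, 98.6% and 96.4% in control plants and 92.6%, 90.3% and 110% in exposed plants. Po-VOCs replicate 3 was thus the highest in these genes. In the stable genes the low spread on FPKM was the rule, and on the TMM-scaled values described further on, their median in this plant was 109% of their own mean against 93.2% and 94.7% in the other exposed plants. The median CV of the 100 genes was 6.56% within the control plants and 7.15% within the exposed plants, and 52 genes had the higher CV in the exposed group.

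**Figure D2:**
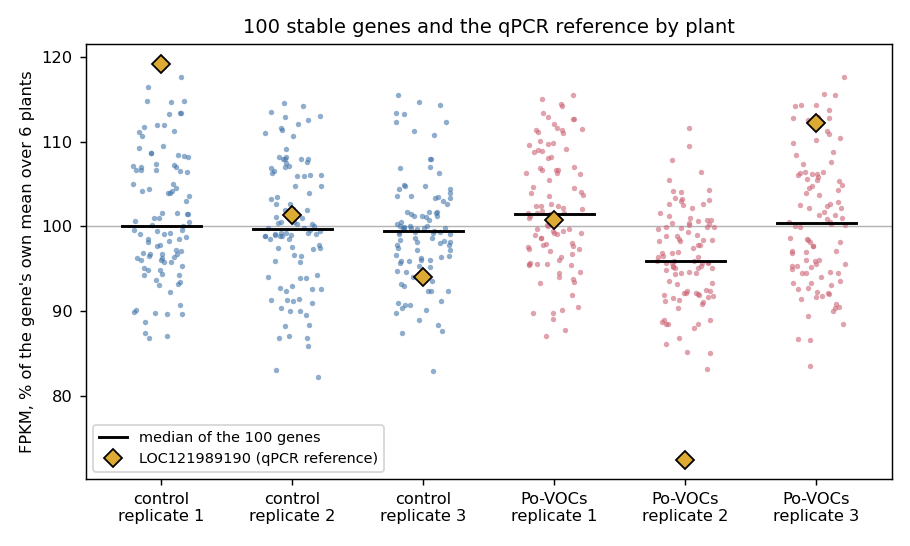
FPKM as a percentage of each gene's own mean over the 6 plants (vertical) for the 100 stable genes (points) in each control plant (blue) and each Po-VOC-exposed plant (red), with bars at the medians and diamonds for LOC121989190. The medians lie between 95.9% and 102% in all 6 plants, while the reference is lowest in Po-VOCs replicate 2 and highest in control replicate 1.

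Counting alone sets a floor under the CV. For each gene, random sampling of reads gives a CV of 1 over the square root of its own mean count over the 6 libraries. This floor was 1.15% to 4.23% for the stable genes, with a median of 2.54%. The number of counts per library averaged 560 in LOC122047296 (chromosome 2B, 132682282 to 132684464), the fewest, and 19 of the genes had under 1000. The variance of the stable genes was a median of 9.85 times that floor, with a range of 1.71 to 47.3, and 1 gene, LOC121975114, was under 2 times, a gene singled out after its values had been seen. In the other genes of the window the median was 103 times. This ratio is built from the CV that chose the genes, so the contrast follows from the choice and is a description.

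The difference between exposed and control plants was limited by the choice itself, because a low CV over all 6 plants leaves no room for a large one. By the quasi-likelihood test of edgeR, fitted on every gene that passed the count filter, the log2 fold changes of the stable genes lay between -0.23 and 0.17, with 47 above 0 and 53 below. Of the 100, 0 were called at an adjusted p below 0.05, where 2.23% of the 41508 genes tested were called, and 0 had an unadjusted p below 0.05, where 20.2% of all genes tested did. DESeq2 also called 0 and gave 0 an unadjusted p below 0.05, against a background of 8.66% called. The rule used the values of the same 6 plants, so nothing is read from these counts. The number of genes called over the whole table also moved with single plants, from 927 to 4 without control replicate 2 and to 1430 without Po-VOCs replicate 1, while 0 of the stable genes were called in either case. The median absolute log2 fold change was 0.07 in the stable genes and 0.35 over all genes tested.

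Low spread did not always mean that the groups were mixed. In 9 of the 100 genes the FPKM ranges of the groups did not overlap. This held for 26.9% of the genes tested and 35.0% of the genes that could be chosen. With 3 plants per group, random labelling of the plants separates the groups of a gene with a probability of 0.1. The 9 of 100 are close to that rate, so no difference between the groups is read from them. The largest negative difference was that of LOC121978680 (chromosome 4B, 129848615 to 129851765), with 75.7, 76.5 and 81.7 FPKM in control plants and 64.7, 65.2 and 69.0 FPKM in exposed plants. Every exposed plant was below every control plant, and the log2 fold change was -0.23 (standard error 0.17). The largest positive one was that of LOC122018902 (chromosome 9A, 137006306 to 137019256), with 65.3, 74.0 and 71.1 FPKM in control plants and 83.4, 72.1 and 82.6 FPKM in exposed plants, where the groups overlapped.

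Of the 9 genes without overlap, 4 were higher in exposed plants (LOC122042164, LOC122019778, LOC121995977 and LOC122047491) and 5 were lower (LOC122004868, LOC121988774, LOC122042780, LOC121981742 and LOC121978680). LOC121995977 (chromosome 6A, 17893718 to 17899046) had 75.9, 86.7 and 85.3 FPKM in control plants and 88.9, 88.0 and 99.955 FPKM in exposed plants. LOC121988774 (chromosome 1B, 164945781 to 164947922) had 261, 249 and 256 FPKM in control plants and 231, 225 and 246 FPKM in exposed plants. LOC121981742 (chromosome 5A, 129432879 to 129447695) had 60.5, 56.3 and 64.0 FPKM in control plants and 52.9, 53.7 and 51.3 FPKM in exposed plants. The log2 fold changes of these 3 genes were 0.16, -0.13 and -0.20, each with a standard error of 0.16 to 0.19, and they were named after their values had been seen.

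Which genes were most stable depended on how the libraries were scaled. The deposited FPKM are scaled by the total count of a library. TMM, a scaling by the bulk of the genes that gives each library a composition factor, set these factors between 0.914 in Po-VOCs replicate 3 and 1.09 in Po-VOCs replicate 1, a span of 1.19-fold that is large beside a CV of under 10%. With the CV taken on TMM-scaled CPM (counts relative to the scaled library total) in place of FPKM, 62 of the 100 genes were again among the 100 lowest. The median CV of the stable genes rose to 9.80%, and 74 of them had a higher CV than on FPKM. On this scale Po-VOCs replicate 3 was the highest plant for 48 of the genes and Po-VOCs replicate 1 the lowest for 39, where on FPKM they were the highest and the lowest for 17 and 7. The data hold no added standard RNA that would say which scale is closer to the amount per cell.

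**Figure D3:**
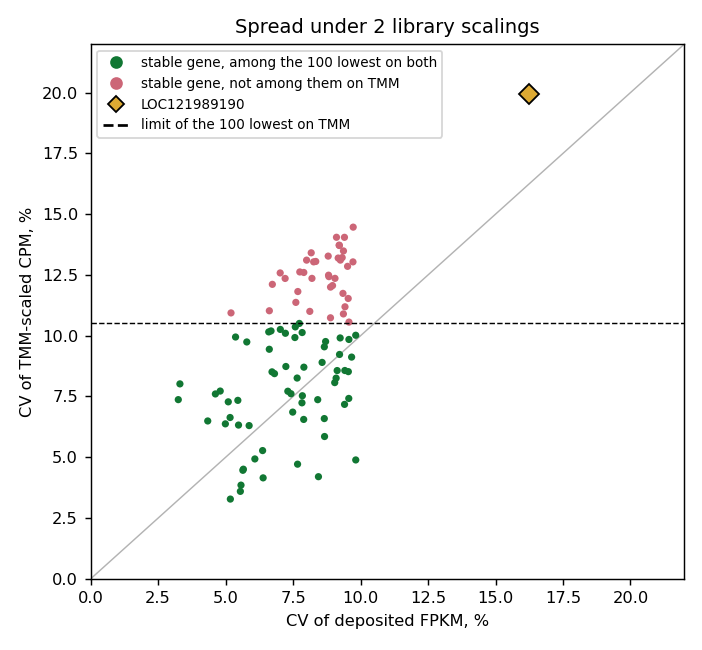
CV of the 100 stable genes on deposited FPKM (horizontal, percent) and on TMM-scaled CPM (vertical, percent), with LOC121989190 as a diamond, the line of equal values in grey and the limit of the 100 lowest CVs on the TMM scale (10.5%) dashed. The 62 genes in green are under the limit on both scales, and the reference is at 16.2% on FPKM and 19.96% on the TMM scale.

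Of the 10 genes with the lowest CV on FPKM, 9 were also under the TMM limit. LOC122047368 (chromosome 2B, 134476688 to 134481820) had the lowest CV of all 1933 genes on the TMM scale, at 3.28%. On FPKM it had 201, 212 and 198 in control plants and 217, 199 and 188 in exposed plants, a CV of 5.17%. In contrast, LOC122006895, the last gene inside the limit on FPKM, was in 9th place on the TMM scale with 4.89%, and LOC122030907 moved to place 274 with 14.5%. A group of 10 of the 100 genes was among the 100 lowest under all 15 other ways of choosing them that were tried, which covered scaling, the measure of spread, the range of levels and each plant left out. These were LOC122042164, LOC121976198, LOC122005999, LOC122055314, LOC121996354, LOC122004868, LOC122053181, LOC121975114, LOC122021691 and LOC122045438. The last 3 were outside the rule for naming genes and are named because they were in this group. The 15 ways all reused the same plants and did not weigh alike. With no genes left out as highest in control, all 100 were kept, so that way could remove none. The SD of log2 FPKM kept 95. LOC121975114 (chromosome 4B, 67040629 to 67046734) had 52.8, 51.9 and 57.3 FPKM in control plants and 58.8, 52.7 and 57.4 FPKM in exposed plants. LOC122021691 (chromosome 9A, 31843644 to 31847118) had 52.6, 57.3 and 54.0 FPKM in control plants and 59.0, 49.8 and 51.9 FPKM in exposed plants. LOC122045438 (chromosome 2B, 18613508 to 18618765) had 91.3, 81.5 and 85.5 FPKM in control plants and 83.5, 76.2 and 76.9 FPKM in exposed plants. In all 3 the groups overlapped.

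The reference LOC121989190 was not among the 100 genes, and its CV was above theirs by the rule. It had 507, 431 and 400 FPKM in control plants against 429, 308 and 478 FPKM in exposed plants, with 9192 to 14478 counts per library. The highest and the lowest plants differed by 1.65-fold and the ranges of the groups overlapped. Its CV was 16.2% on FPKM and 19.96% on the TMM scale. By CV on FPKM it was in place 515 of the 1933 genes, with 26.6% of them below it, and in place 48 of the 216 genes with a mean FPKM of 200 or more. Po-VOCs replicate 2 was the lowest plant, and without it the CV was 9.55% and the place 116, while without Po-VOCs replicate 3 the place was 805.

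A difference between the groups was not shown for the reference. The log2 fold change of LOC121989190 was -0.14 ± 0.26 (standard error), and edgeR's quasi-likelihood test gave it an adjusted p of 0.802. Its sign turned without Po-VOCs replicate 2, to 0.03. Changes of the size of its standard error in either direction, and larger ones, are not excluded by these 6 plants. The reads that near-identical elongation factor genes could share are a further limit, because the sources used here do not say how such reads were counted.

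Divided by the geometric mean of the 100 stable genes, the reference was 5.81, 4.99 and 4.65 in control plants and 4.86, 3.70 and 5.49 in exposed plants. The ratio spanned 1.57-fold. The geometric mean itself ran from 83.3 FPKM in Po-VOCs replicate 2 to 88.2 FPKM in Po-VOCs replicate 1, a steadiness that follows from averaging 100 genes chosen for even FPKM. The mean log2 ratio was 0.15 lower in exposed plants (exact two-sided permutation p = 0.5, where 3 plants against 3 cannot give a p below 0.1). In the FPKM of these 6 plants, a fold change read against the reference was on average 1.11 times one read against the 100 genes. This rested on Po-VOCs replicate 2, without which the factor was 0.992 and the mean log2 ratio was 0.01 higher in exposed plants, and with any other single plant left out it was 1.04 to 1.21. A set of 7 ginger genes was also measured by qPCR. In these libraries, each gene was divided by the denominator plant by plant, and the log2 ratio between the group means of these quotients was 1.68 to 5.52 relative to the stable genes and 1.80 to 5.70 relative to the reference, and the choice of denominator changed it by 0.05 to 0.21. These genes had been picked for their change in the same libraries. Which loci the primers of the reference amplify was not checked, so these values hold for the FPKM of LOC121989190 and not for the qPCR itself.

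**Figure D4:**
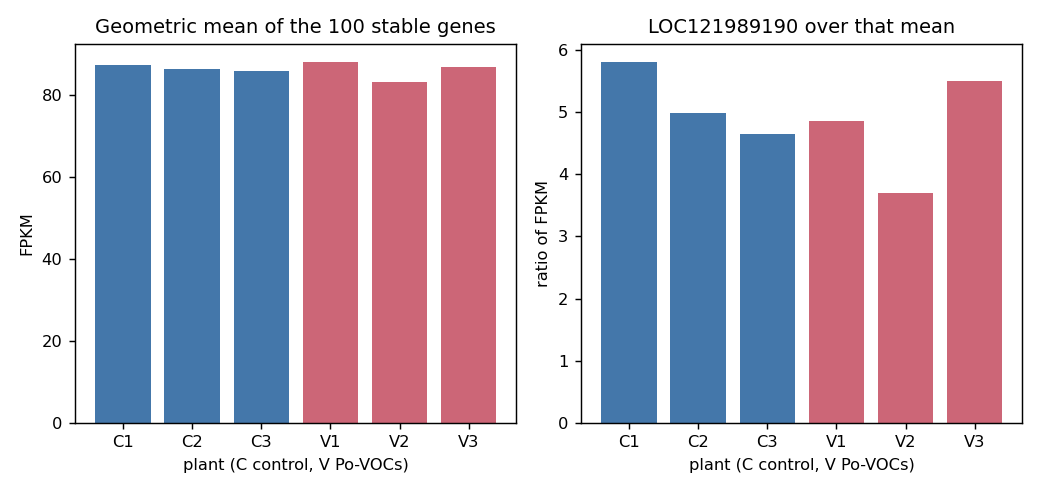
Geometric mean FPKM of the 100 stable genes (left) and the FPKM of LOC121989190 divided by it (right) in control plants (C1 to C3, blue) and Po-VOC-exposed plants (V1 to V3, red), 1 bar per plant and both axes from 0. The mean, of genes chosen for even FPKM, lies between 83.3 and 88.2 FPKM, and the ratio runs from 3.70 in Po-VOCs replicate 2 to 5.81 in control replicate 1.

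Ratios between genes of one library do not depend on how that library is scaled. The spread of a gene was therefore also taken as the mean, over the stable genes, of the SD of the log2 ratio to each of them across the 6 plants. It was lowest for LOC122005422, LOC121976198 and LOC122055314, at 0.116, 0.117 and 0.118, and highest at 0.186, with a median of 0.150. For LOC121989190 it was 0.249, but the stable genes lie close to one another by choice, so this is a description. Taken over all 1932 genes of the window with counts in every plant, the spread of the reference was 0.538, in place 435, and the median 0.601. The lowest was 0.489, for the stable gene LOC122027177, whose CV on the TMM scale was 10.9%. Po-VOCs replicate 3 was high both in this gene and in the median of the other genes of the window.

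Among the 4950 pairs of stable genes, the ratio of LOC121981567 (chromosome 5A, 123560761 to 123564104) to LOC121985444 (chromosome 5B, 115517815 to 115521140) was the steadiest. It was 0.921, 0.915 and 0.910 in control plants and 0.931, 0.901 and 0.905 in exposed plants, an SD of 0.017 on the log2 scale, where the median over all pairs was 0.15. The ratio of LOC121976198 to LOC122055314, genes of chromosomes 4B and 3B, came next and stood between 0.263 and 0.270. These pairs were named after their values had been seen. The first of them lies at matching places of chromosomes 5A and 5B, and near-identical copies may share reads.

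Gene structure was not used by the rule. All 100 stable genes were protein coding. Their exons added up to a median of 1454 bases, against 1139 in the other genes of the window, and in 23 of the 100 they were under 1000 bases, against 40.5% of the others. They spanned a median of 4358 bases of the genome against 2568, and 37.0% had at least 2 annotated transcripts, against 19.8%. The stable genes were thus longer, more spread out along the chromosome and annotated with more transcripts. At similar total counts, FPKM summed to 771959 in Po-VOCs replicate 3 and to 673098 to 691965 in the other plants. More of the counts of Po-VOCs replicate 3 thus fell on shorter genes, and TMM has no term for length. Whether this difference between libraries underlies the difference in gene length was not tested. The 100 genes with the lowest CV on the TMM scale had a median span of 4727 bases, and 61 of them had 1 transcript, against 63 of the 100 chosen on FPKM. Over the 1933 genes, the rank correlation of CV with span was -0.39, with exon length -0.13 and with the mean count -0.03, all within the same 6 libraries and across genes, which are not independent replicates.

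The stable genes were spread over 20 of the 22 numbered chromosomes, 52 on those lettered A and 46 on those lettered B, and 2 were on unplaced sequence. The genes that could be chosen were 937 on A and 951 on B. Chromosome 4B held the most, 11 of its 110 genes in the window, and chromosome 9A the largest share, 7 of 55, while chromosomes 11A and 11B held 0 of 35 and 0 of 28. The nearest neighbours were LOC122055587 and LOC122055598 on chromosome 3B, 78672 bases apart, and all others were at least 653937 bases from the next stable gene. LOC122055587 and LOC122055598 are named for this distance alone.

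The Zo_v1.1 assembly gives the chromosomes as lettered sets A and B, and many genes have a gene of like structure at the matching place of the other set. What these sets stand for was not checked, and they may be copies of the same chromosomes. A counterpart was sought by aligning the order of genes, with a score for like spans and for an equal number of annotated proteins. Pairs whose span and exon length both agreed within 5% were kept, a limit that the score on span already favours. Since this match did not look at sequence, a pair may join genes that are not copies of each other, and copies that are nearly identical may share reads. The alignment gave 23268 pairs, of which 10554 were kept. Over the 7417 kept pairs with at least 1 FPKM in both genes, the mean FPKM had a rank correlation of 0.89. The alignment did not use the mean FPKM. Of the 100 stable genes, 48 had a counterpart, and 52.5% of the other genes of the window did.

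In 20 of these 48, the counterpart was itself 1 of the 100, which makes 10 pairs of stable genes. Where A and B hold copies of a single gene, which was not tested, such a pair is 1 gene listed on both sets. One of these pairs, LOC122019778 (chromosome 9A, 423994 to 426805) and LOC122023675 (chromosome 9B, 889413 to 892238), had CVs of 6.60% and 6.62% at 85.9 and 50.8 FPKM. Another, LOC121969508 (chromosome 4A, 9362166 to 9365057) and LOC121974637 (chromosome 4B, 8104146 to 8107067), had 7.20% and 8.80% at 128 and 138 FPKM. The SD of the log2 ratio within the 10 pairs was 0.017 to 0.16. In 7 pairs the log2 fold changes of both genes had the same sign, and all these changes were small. These pairs were picked after their values had been seen, since the protein sequences on which the choice was to rest were not used here.

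The counterparts that were not among the 100 were looked at next. With a mean FPKM of at least 10 there were 27 of them, after 1 below that level had been left out, and their median CV was 11.8% (quartiles 10.8% and 14.2%). Of these, 20 were in the window of 50 to 500 FPKM, where the choice had ranked them and left them above the limit of 9.82%, so the values of the 27 are a description. The 7 outside the window had not been ranked, and their CV was 7.21% to 15.8%, with a median of 12.1%, where the 170 counterparts of other genes outside the window had a median of 27.5%. All 923 counterparts of the other genes of the window, most of them genes of the window themselves, had a median of 25.6% (quartiles 16.9% and 42.4%). On the TMM scale the medians were 14.8% and 28.1%. Of the 27, 92.6% had a CV at or below 19.6%, which is the limit of the stable genes doubled, against 33.6% of the 923. The exceptions were LOC122040467, at 28.6%, the counterpart of LOC122044990, and LOC122047622, at 50.9%, the counterpart of LOC122043118. LOC122047622 was listed at 0 FPKM in control replicate 3 and stood between 56.8 and 81.0 FPKM in the other plants. Over all 990 genes of the window with such a counterpart, the rank correlation between the CVs of the genes of a pair was 0.88, as a description over genes that share the same libraries. A pair with both genes in the window entered from each side, and its genes may be copies of a single gene. The largest absolute log2 fold change among the 27 was 0.39.

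**Figure D5:**
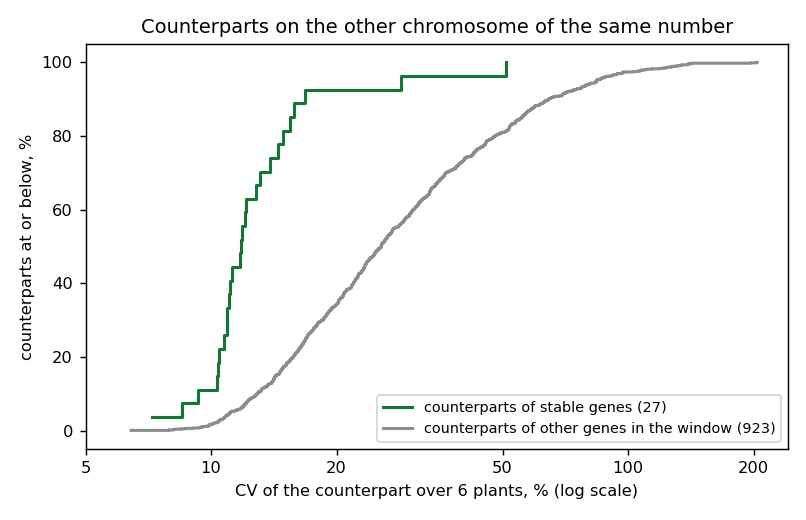
Share of counterparts (vertical, percent) with a CV over the 6 plants at or below the value on the horizontal axis (percent, log scale), for the 27 counterparts of stable genes (green) and the 923 counterparts of other genes in the window (grey), without counterparts that are stable genes themselves. The medians are 11.8% and 25.6%.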

How the data were processed

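RNA-seq was performed on 1 leaf blade library per plant, 3 control and 3 Po-VOCs plants. Per the methods, the authors trimmed reads with Trimmomatic, mapped them with HISAT2 to Zo_v1.1 and counted them per gene with HTSeq-count. For versions, counting mode and strand setting, nothing is given in the sources used here. The deposited read counts are whole and not normalized. The deposited FPKM, attributed by the authors to Cufflinks, equalled in all 299269 values above 0 the count divided by 1 length per gene and by the library total, within 0.1%. That length, derived from the files, is the exon length given in the text.

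The members and lists were chosen with earlier results of these data known. CVs used the SD with n-1. The count test was edgeR 4.0.16 under R 4.3.3 (filterByExpr with its minimum count of 10, TMM, quasi-likelihood test, group only, Benjamini-Hochberg over the 41508 genes tested). The standard error is the absolute log2 fold change over the square root of F. DESeq2 1.42.0 and limma 3.58.1 (pseudocounts 1 and 0.1) were run as alternatives. The edgeR test and the rule that chose the genes were first tried on simulated data. DESeq2, limma and the permutation test were not. Genes are named by a rule: the reference, the 10 lowest CVs, 3 on either side of the limit, and the extremes of level, count and log2 fold change; exceptions are stated in the text. All 55601 gene IDs were found in RefSeq's table for Zo_v1.1, from which positions come. Planned matches by protein sequence, promoter motifs, gene families by name and leaf markers were not run, since the reference used here gives neither sequences nor product names. The study's table of gene annotations was read in part only.

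Same-numbered plants of the groups did not deviate together (correlations of -0.02, 0.02 and -0.10), and no source says that a number marks a shared batch. The p-values measure the spread between single plants.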

Additional observations from a re-analysis of the deposited data

How the results depend on the processing

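Of the 100 stable genes, 62 were among the 100 lowest with TMM-scaled CPM, 60 with DESeq2 size factors, 46 with the SD pooled within the groups and 29 with a window of 20 to 1000 FPKM. They were 56 with log2 ratios to all genes of the window and 38 with TMM and the pooled SD together, both chosen after seeing the data, and 44 to 78 with 1 plant left out, fewest without Po-VOCs replicate 3 (44) and control replicate 2 (55). The SD of log2 FPKM kept 95 with either pseudocount. The window of 20 to 1000 FPKM changed no CV. It brought in genes of 20 to 50 FPKM, 325 of them at or below the CV limit of the stable genes, which competed for the same 100 places. The median CV of the stable genes was 9.80% with TMM, 10.2% with size factors and 7.62% to 8.08% without 1 plant. The median CV of the counterparts was 14.8% with TMM, 11.4% to 12.3% without 1 plant, and moved by less than its spread under other limits on the pairs, chosen after seeing the data. The planned settings of protein identity were not run.

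For LOC121989190 the CV was 19.96% with TMM and 9.55% to 18.2% without 1 plant, and its place ran from 116 without Po-VOCs replicate 2 to 805 without Po-VOCs replicate 3. Its log2 fold change was -0.34 to 0.03 without 1 plant, reversed without Po-VOCs replicate 2 (0.0318), and the adjusted p was 0.461 to 0.995 over all alternatives. With the replicate number as a block it was -0.17. The left-out plants for the ratio to the stable genes and the counterparts outside the window were chosen after seeing the data. The block gave 136 called genes, where the fit without it gave 927. DESeq2 called 4063, and leaving out 1 plant gave 4 to 1430: 91 without control replicate 1, 4 without control replicate 2, 37 without Po-VOCs replicate 2, 33 without Po-VOCs replicate 3 and 1430 without Po-VOCs replicate 1. The cause was not tested. Of the stable genes 0 were called in any of these fits. Depth limits the CV of the genes with the fewest counts, whose counting floor was 4.23%.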
